A study of Mus musculus with 15 samples.

Results

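The 7 genes described here encode the fetal and adult isoforms of the heart's contractile proteins: the myosin heavy chains Myh6 and Myh7, the actins Acta1, Actc1 and Acta2, and the atrial myosin light chains Myl4 and Myl7. They were chosen by name. All 7 were in the files, out of 12391 named genes, and all 7 passed the filter on low values. Hearts came from male C57BL/6 mice in 3 groups of 5: AngII+QDG (AngII infusion with QDG, a treatment that the labels give only by these letters), AngII (infusion of angiotensin II, the pressor peptide of the renin system) and Control. The labels used here state no dose, no duration and no age. The label says only heart tissue, so atria, ventricles, vessels and blood could all contribute, and in such bulk tissue fewer cells of a type and less RNA per cell cannot be told apart. The study asked which genes and pathways differed between these groups. Levels are FPKM, fragments per kilobase of transcript scaled to the depth of the library, summed over the Ensembl transcripts of a gene.

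Muscle contracts when myosin heads pull on actin filaments, and vertebrates carry several genes for each part. In the adult mouse ventricle Myh6, the fast alpha myosin heavy chain, and Actc1, cardiac alpha-actin, dominate. Myh7, the slow beta myosin heavy chain, and Acta1, skeletal alpha-actin, are abundant before birth and are known to return in pressure-loaded hearts, which made the ratios of Myh7 to Myh6 and of Acta1 to Actc1 standard readouts of hypertrophy. Acta2 is the smooth muscle alpha-actin, also used by the embryonic heart and by myofibroblasts, and Myl4 and Myl7 are the essential and regulatory light chains of the atrium and of the embryonic heart.

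The actins are close relatives, which matters for how reads can be assigned to them. The first 90 coding bases of each are given from GENCODE M21, with the bases at which the 3 genes are not all alike in capitals, to show how densely their differences lie.
Acta1: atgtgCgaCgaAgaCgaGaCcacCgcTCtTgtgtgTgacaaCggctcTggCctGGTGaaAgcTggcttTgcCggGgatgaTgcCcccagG
Actc1: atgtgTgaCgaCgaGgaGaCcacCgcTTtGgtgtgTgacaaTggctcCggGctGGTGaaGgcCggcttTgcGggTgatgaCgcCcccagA
Acta2: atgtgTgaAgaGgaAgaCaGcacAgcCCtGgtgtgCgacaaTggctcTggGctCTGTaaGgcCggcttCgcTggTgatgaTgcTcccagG
Of these 90 positions 26 differed in at least 1 gene. Over the whole coding sequence of 1134 bases, Acta1 and Actc1 were 86.2% identical and Acta1 and Acta2 85.4%, and no window of 50 bases (0% of windows) was shared between any pair of the 3 transcripts. Myh6 and Myh7 were closer, with 91.4% identity, and 22.6% of the 50-base windows of Myh6-201 also occurred in Myh7-201. Fragments from such windows could be split between the 2 genes by the authors' counting, so the Myh6 and Myh7 levels carry that uncertainty.

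Myh6 (ENSMUSG00000040752) lies on chromosome 14 of GRCm38 from 54941921 to 54966927 and Myh7 (ENSMUSG00000053093) just upstream of it from 54970684 to 54994626, both on the minus strand. Acta1 (ENSMUSG00000031972) lies on chromosome 8 from 123891769 to 123894751, Actc1 (ENSMUSG00000068614) on chromosome 2 from 114047282 to 114053548 and Acta2 (ENSMUSG00000035783) on chromosome 19 from 34241090 to 34255590, all on the minus strand. Myl4 (ENSMUSG00000061086) lies on the plus strand of chromosome 11 from 104550663 to 104595753, and Myl7 (ENSMUSG00000020469) on the minus strand of the same chromosome from 5896637 to 5898782. The 250 bases upstream of the RefSeq start (GRCm38.p6) are shown for the genes of the 2 switching pairs, Acta1 with Actc1 and Myh7 with Myh6. Capitals mark exact matches, on either strand, to 3 motifs. These are the CArG box CCWWWWWWGG (W is A or T, the site of serum response factor), the M-CAT core CATTCC (the site of TEAD factors) and TATAA. Stretches that differ from a motif at 1 base were not marked or counted.
Acta1, chr8:123894776-123895025, minus strand: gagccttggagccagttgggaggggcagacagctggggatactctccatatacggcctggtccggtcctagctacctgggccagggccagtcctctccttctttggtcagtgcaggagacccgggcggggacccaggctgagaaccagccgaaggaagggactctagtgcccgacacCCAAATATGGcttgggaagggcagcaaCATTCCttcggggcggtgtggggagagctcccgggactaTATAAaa
Actc1, chr2:114052876-114053125, minus strand: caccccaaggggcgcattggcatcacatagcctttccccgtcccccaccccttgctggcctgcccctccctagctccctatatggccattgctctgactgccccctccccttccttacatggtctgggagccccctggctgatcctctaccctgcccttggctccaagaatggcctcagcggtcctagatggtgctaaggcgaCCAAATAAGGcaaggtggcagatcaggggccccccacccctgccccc
Myh7, chr14:54994627-54994876, minus strand: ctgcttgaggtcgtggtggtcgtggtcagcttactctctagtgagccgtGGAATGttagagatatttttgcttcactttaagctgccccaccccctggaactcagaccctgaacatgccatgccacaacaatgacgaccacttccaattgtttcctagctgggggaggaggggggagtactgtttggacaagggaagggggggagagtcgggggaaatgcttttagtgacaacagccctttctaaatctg
Myh6, chr14:54966608-54966857, minus strand: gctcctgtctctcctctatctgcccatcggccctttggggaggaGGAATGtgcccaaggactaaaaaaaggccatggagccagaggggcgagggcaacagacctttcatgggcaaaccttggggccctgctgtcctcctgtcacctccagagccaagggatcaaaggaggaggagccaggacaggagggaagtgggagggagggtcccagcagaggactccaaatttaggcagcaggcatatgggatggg
Both Acta1 and Actc1 held 1 CArG box in this window, a motif found in 1.40% of 27025 RefSeq windows of this length, and Myh6 and Myh7 held 0. Acta1, Myh7 and Myh6 each held 1 M-CAT core, found in 12.6% of windows, and only Acta1 of these 4 held TATAA, found in 23.5%. The Myh7 window is that of the more distal of its RefSeq starts, and the window of its other start held 0 M-CAT cores. The matches in these 4 windows did not overlap, and a match describes the letters and does not show that a factor bound there. Among the member windows not shown, Acta2 held 0 CArG boxes and 1 M-CAT core, Myl7 held 1 of each and Myl4 held 0 of each.

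The levels of the 7 genes spanned more than 3 orders of magnitude. The median over the 15 libraries was 6418 FPKM for Actc1, 3573 for Myh6, 241 for Acta1, 73.5 for Myh7, 67.7 for Acta2, 1.45 for Myl7 and 1.22 for Myl4. Neighbours in that order were not all separated. Actc1 lay above Myh6 in 12 of 15 libraries, Myh7 above Acta2 in 11 of 15 and Myl7 above Myl4 in 10 of 15, whereas Myh6 above Acta1, Acta1 above Myh7 and Acta2 above Myl7 held in 15 of 15. For scale, the ventricular light chains averaged 6633 ± 969, 6464 ± 554 and 8032 ± 910 FPKM for Myl2 in AngII+QDG, AngII and Control, and 5057 ± 1093, 6346 ± 444 and 5622 ± 1958 FPKM for Myl3 (SD, n = 5 each).

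**Figure D1:**
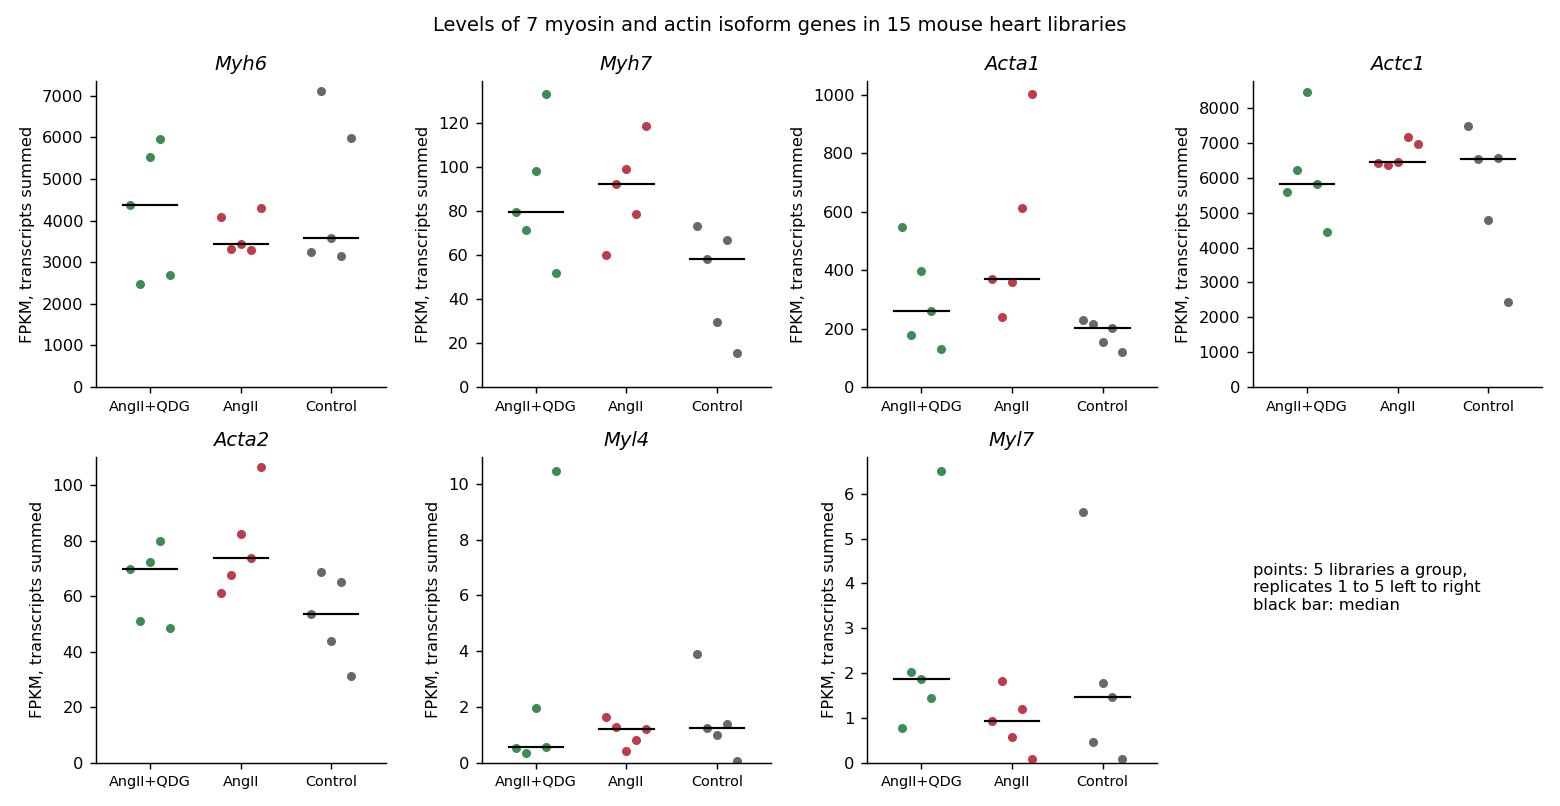
FPKM of each of the 7 genes (transcripts summed, linear axis from 0) in 5 AngII+QDG, 5 AngII and 5 Control libraries, each point a library and each black bar the median of 5. For Acta1 the lowest AngII library (241 FPKM) sits above the highest Control library (231 FPKM), and for the other 6 genes the AngII and Control points overlap.

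Acta1 was the 1 member of 7 called between AngII and Control hearts, and it was higher in AngII. Its 5 AngII libraries, replicates 1 to 5, held 371, 241, 358, 614 and 1003 FPKM, against 231, 217, 156, 201 and 121 FPKM in the 5 Control libraries. The groups did not overlap, although the lowest AngII library stood just above the highest Control library and AngII 5 stood far above the rest. The means were 517 ± 304 FPKM in AngII and 185 ± 45.7 FPKM in Control (SD, n = 5 each), a log2 fold change of 1.33 ± 0.41 (SE) on the scale of log2(FPKM + 1) with a limma adjusted p = 0.0451. Over all 12267 genes tested, 13.4% were called at an adjusted p of at most 0.05 (11.9% higher and 1.48% lower in AngII; 31.5% had an unadjusted p under 0.05, as had 3 of the 7 members), and in 10.1% every AngII library lay above every Control library, so 1 of 7 members is near that background. The median log2 fold change of all genes was 0.20, and relative to it Acta1 stood at 1.13.

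The Acta1 call was a narrow one. It ended when 1 library was left out in 10 of 15 cases (AngII+QDG replicates 3 and 4, AngII replicates 1, 2, 4 and 5, Control replicates 1, 2, 3 and 5), with adjusted p between 0.0504 and 0.103 and a log2 fold change of at least 1.05. Without Control 3 and Control 5 together it was 1.07 (limma adjusted p = 0.226). With each library's balance of short against long transcripts as a covariate it was 0.58 (adjusted p = 0.938), but that balance did not overlap between AngII and Control.

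In the AngII+QDG hearts Acta1 took values on both sides. Its 5 libraries, replicates 1 to 5, held 547, 177, 399, 261 and 129 FPKM, so 3 exceeded every Control library and 2 lay within the Control range. The mean was 303 ± 171 FPKM (SD, n = 5), against 517 ± 304 FPKM in AngII. The log2 fold change was −0.78 ± 0.41 (SE; limma adjusted p = 0.998) with a 95% interval of −1.65 to 0.09. Against Control it was 0.55 ± 0.41 (adjusted p = 0.362, interval −0.31 to 1.42). Both intervals include 0, so the AngII+QDG level could not be separated from that of AngII or of Control. Nearly all of the Acta1 signal came from its 1446-base transcript Acta1-201, which made up 98.5 to 99.9% of the summed FPKM in the 15 libraries.

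Actc1, the partner of Acta1 in the adult heart, was even across the AngII libraries and spread in the others. It held 5595, 6222, 8470, 5829 and 4454 FPKM in AngII+QDG, 6418, 6360, 6457, 7179 and 6954 FPKM in AngII and 7472, 6529, 4800, 6576 and 2427 FPKM in Control. Control 5 was the lowest library by a wide margin, and the 3 groups overlapped. The log2 fold change was 0.36 ± 0.25 (SE) for AngII against Control (limma adjusted p = 0.331), and it was −0.04 without Control 3 and Control 5. For AngII+QDG against AngII it was −0.16 ± 0.25 (adjusted p = 0.998) and for AngII+QDG against Control 0.21 ± 0.25 (adjusted p = 0.595; −0.13 after scaling each library to its median gene).

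The ratio of Acta1 to Actc1 put the 2 actins on 1 scale. Replicates 1 to 5 had ratios of 0.0578, 0.0379, 0.0555, 0.0856 and 0.144 in AngII, against 0.0309, 0.0333, 0.0324, 0.0306 and 0.05 in Control. Control 5, low in both actins, had the highest Control ratio, above that of AngII 2 only. The other 4 Control libraries lay within a narrow band below every AngII library. The log2 ratio averaged −3.87 ± 0.73 in AngII and −4.85 ± 0.30 in Control (SD, n = 5 each), a difference of 0.98, or 1.97-fold (exact two-sided permutation test, p = 0.0159; adjusted p = 0.190 over the 12 ratio tests). With 5 against 5 libraries the test cannot give a p below 0.00794. Over the 12 tests 1 ratio alone at that p would have an adjusted p of 0.0952, so it could not pass 0.05 by itself. In AngII+QDG the ratios were 0.0977, 0.0285, 0.0471, 0.0448 and 0.0290, and the log2 ratio of −4.50 ± 0.72 differed by −0.63 from AngII (exact permutation p = 0.214, adjusted p = 0.508) and by 0.35 from Control (exact permutation p = 0.405, adjusted p = 0.607).

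**Figure D2:**
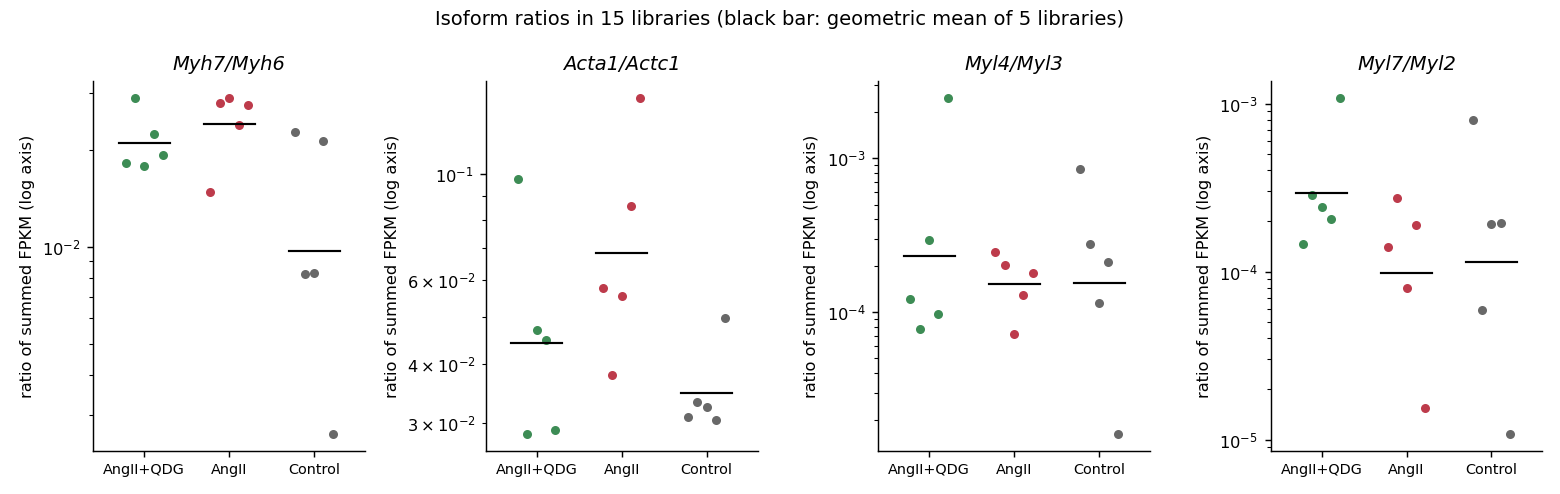
Ratios of summed FPKM on logarithmic axes in 5 AngII+QDG, 5 AngII and 5 Control libraries for the 4 isoform pairs, each point a library and each black bar the geometric mean of 5. The Acta1/Actc1 points of AngII reach 0.144, while those of Control end at 0.05, and the light chain ratios spread over more than an order of magnitude within the Control group.

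Myh7 had a higher mean in both infused groups than in Control, without passing the test. It held 79.7, 71.6, 98.4, 133 and 52.0 FPKM in AngII+QDG, 60.2, 92.6, 99.4, 78.7 and 118.8 FPKM in AngII and 73.5, 58.4, 29.7, 67.0 and 15.7 FPKM in Control. The spread in Control came from Control 3 and Control 5, and the groups overlapped. AngII averaged 89.9 ± 22 FPKM and Control 48.9 ± 24.9 FPKM (SD, n = 5 each). The log2 fold change was 1.03 ± 0.37 (SE; limma adjusted p = 0.0764, interval 0.24 to 1.82). AngII+QDG averaged 87.0 ± 30.8 FPKM, which was 0.95 ± 0.37 from Control (adjusted p = 0.0857) and −0.08 ± 0.37 from AngII (adjusted p = 0.998, interval −0.87 to 0.71). The AngII value passed without Control 4 (1.19, adjusted p = 0.0443), and the AngII+QDG value passed without Control 1 (1.14, adjusted p = 0.0493). Each passed in only that 1 of 15 fits with a library left out. Over those fits the AngII value ran between 0.69 and 1.225 (limma adjusted p up to 0.158). The AngII+QDG value ran between 0.61 and 1.14 (limma adjusted p up to 0.183). The full-length Myh7-201, of 6135 bases, carried a median of 86.4% of the summed FPKM.

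Acta2 was also higher on average in AngII, again without passing the test. It held 61.2, 67.7, 82.4, 73.7 and 107 FPKM in AngII and 53.5, 68.9, 43.9, 65.3 and 31.1 FPKM in Control. The 2 groups overlapped, and AngII 5 and Control 5 were the extremes, as they were for Acta1. The log2 fold change was 0.60 ± 0.22 (SE; limma adjusted p = 0.0797, and 0.0474 without Control 4). Over the 15 fits with 1 library left out the change ran between 0.425 and 0.705, with adjusted p up to 0.18. In AngII+QDG Acta2 ranged between 48.6 and 79.9 FPKM, −0.28 ± 0.22 from AngII (adjusted p = 0.998) and 0.32 ± 0.22 from Control (adjusted p = 0.329; −0.02 after the same scaling to the median gene). Acta2 marks smooth muscle, so the smooth muscle markers, 10 of 10 listed, stand beside it. In AngII against Control 1 of 10 (Mylk, myosin light chain kinase) was called higher and 0 lower, beside 11.9% and 1.48% of all genes. The markers' median log2 fold change was 0.21 beside 0.20 for all genes. In AngII+QDG against Control Mylk was again called higher (0.69, limma adjusted p = 0.0106) and Myl9, a smooth muscle regulatory light chain, lower (−0.52, adjusted p = 0.0365). That is 1 of 10 in each direction, beside 16% of all genes higher and 3.31% lower. The summed level ran between 209 and 763 FPKM in AngII+QDG, 245 and 895 FPKM in AngII and 548 and 915 FPKM in Control, but most of it came from desmin (Des; means of 475.7, 351.9 and 582.1 FPKM in the same order), which cardiomyocytes also express. Of the other markers, Myh11 averaged 4.18, 3.65 and 2.61 FPKM in AngII+QDG, AngII and Control, against 27.6, 32.2 and 33.9 FPKM for Tagln, 1.335, 1.995 and 1.816 FPKM for Cnn1 and 37.2, 44.6 and 53.3 FPKM for Myl9. In AngII against Control the log2 fold change was positive for Synpo2 (0.66), Mylk (0.62), Smtn (0.55), Myh11 (0.24), Actg2 (0.23), Lmod1 (0.20) and Cnn1 (0.09). It was negative for Des (−1.20), Myl9 (−0.26) and Tagln (−0.06), so the markers did not all move the same way. Other lists in AngII against Control had 1 of 5 pericyte, 0 of 7 fibroblast and 1 of 3 tested activated fibroblast markers called higher, and 0 lower. Their median log2 fold changes were 0.40, 0.45 and 0.23, beside 0.20 for all genes. The part of any of these cell types in the Acta2 level was not tested.

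**Figure D3:**
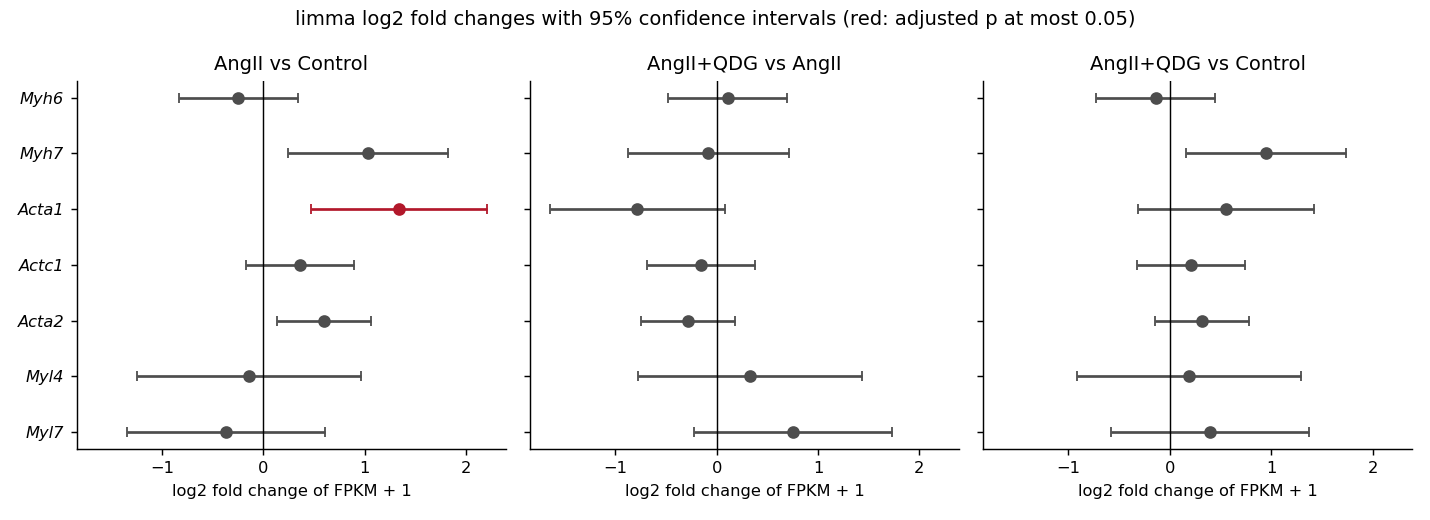
Limma log2 fold changes of the 7 genes with 95% confidence intervals, 1 panel a comparison, with the value on the horizontal axis and red for an adjusted p of at most 0.05. Acta1 in AngII against Control (1.33) is the 1 red point, and in AngII+QDG against AngII every interval includes 0.

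Summed Myh6 showed no call in any comparison. It held 4386, 2481, 5531, 5951 and 2694 FPKM in AngII+QDG, 4087, 3310, 3432, 3292 and 4315 FPKM in AngII and 3246, 7123, 3573, 3146 and 5995 FPKM in Control. The Control group held both the highest library and values as low as those of AngII. The log2 fold change was −0.25 ± 0.28 (SE) for AngII against Control (limma adjusted p = 0.564, interval −0.84 to 0.34), 0.11 ± 0.28 for AngII+QDG against AngII (adjusted p = 0.998) and −0.14 ± 0.28 for AngII+QDG against Control (adjusted p = 0.76).

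That summed level was made mostly of 1 short transcript model. Myh6-207, of 542 bases in 4 exons, spans 54941928 to 54944511 on chromosome 14, the 3′ end of the gene, and 539 of its 542 bases lie in exons of the full-length Myh6-201 (6113 bases, 39 exons). FPKM is per length, and on that scale Myh6-207 made up a median of 72.5% of the summed FPKM over the 15 libraries, and up to 98.7%. Counted as fragments (FPKM times length), it took 5.19, 74.3, 14.4, 21.5 and 18.5% of all Myh6 fragments in AngII+QDG, 13.5, 11.4, 14.3, 20.3 and 7.92% in AngII and 49.7, 30.4, 94.8, 60.6 and 68.4% in Control. Every AngII library was below every Control library, and 4 of the 5 AngII+QDG libraries were too, with AngII+QDG 2 among the Control values. The full-length models Myh6-201 and Myh6-205 carried most of the remaining fragments. The level of Myh6-207 itself ran between 1928 and 2561 FPKM in AngII, against 2926 and 5827 FPKM in Control, without overlap. Among 21861 transcripts, 0.974% had every AngII library below every Control library and 6.93% had every one above.

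**Figure D4:**
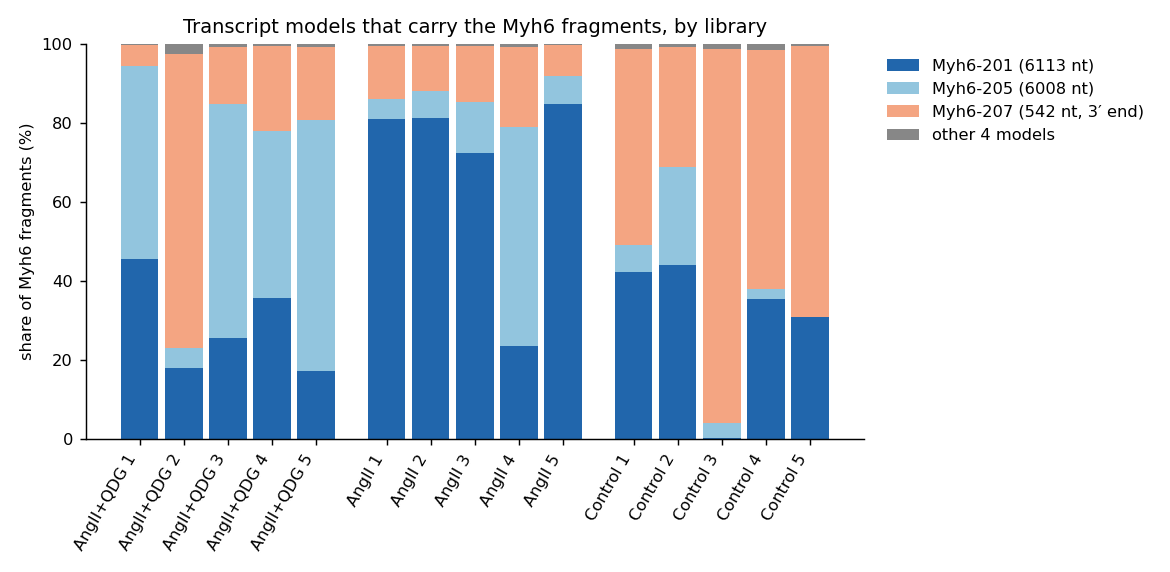
Share of Myh6 fragments, in percent, that the deposited values assign to each transcript model, 1 stacked bar a library in the order AngII+QDG, AngII and Control. The 3′ model Myh6-207 takes 7.92 to 20.3% in AngII and 30.4 to 94.8% in Control, and AngII+QDG 2 stands apart from its group with 74.3%.

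The full-length models ran the other way. Myh6-201 and Myh6-205 together held 2656, 65.0, 1868, 1439 and 745 FPKM in AngII+QDG, 1453, 1322, 1168, 832.5 and 2165 FPKM in AngII and 258, 1177, 13.5, 163 and 231 FPKM in Control. Control 3 was almost empty of them, and of the Control libraries only Control 2 reached into the AngII range. On near full-length models (protein-coding, at least 0.5 of the longest in length) the log2 fold change of Myh6 was 2.91 for AngII against Control (limma adjusted p = 0.0813), −0.71 for AngII+QDG against AngII (adjusted p = 0.999) and 2.21 for AngII+QDG against Control (adjusted p = 0.162). On transcripts weighted by length it was 1.30 (adjusted p = 0.133), −0.32 (adjusted p = 1) and 0.98 (adjusted p = 0.243). The 3 ways of summing thus gave different signs for the same gene, and none of them gave a call.

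The Myh7 to Myh6 ratio also depended on the models used. On summed FPKM it was 0.0147, 0.0280, 0.0290, 0.0239 and 0.0275 in AngII, against 0.0226, 0.00821, 0.00831, 0.0213 and 0.00262 in Control, so that 4 of 5 AngII libraries lay above all 5 Control libraries and AngII 1 lay among them. The log2 ratio averaged −5.39 ± 0.41 in AngII and −6.69 ± 1.27 in Control (SD, n = 5 each), a difference of 1.30, or 2.47-fold (exact two-sided permutation p = 0.0556, adjusted p = 0.333). In AngII+QDG it averaged −5.58 ± 0.29, which was 1.11 above Control (exact permutation p = 0.111, adjusted p = 0.333) and 0.19 below AngII (difference −0.19, exact permutation p = 0.397, adjusted p = 0.607). On near full-length models the difference turned to −2.06 for AngII against Control (exact permutation, adjusted p = 0.349) and to −1.44 for AngII+QDG against Control (adjusted p = 0.683), and on transcripts weighted by length to −0.39 and −0.14.

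As a share of both heavy chains, Myh7 stayed the minor isoform on summed FPKM, with medians of 1.90% in AngII+QDG, 2.68% in AngII and 0.824% in Control. On fragments the medians were 5.15, 5.24 and 8.13% in the same order. On near full-length models they were 5.79, 5.55 and 19.4%, and the highest values were 46.3% in AngII+QDG 2, 7.72% in AngII 4 and 67.9% in Control 3. Those 2 libraries with the highest shares were the ones with the lowest full-length Myh6, not with the highest Myh7.

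**Figure D5:**
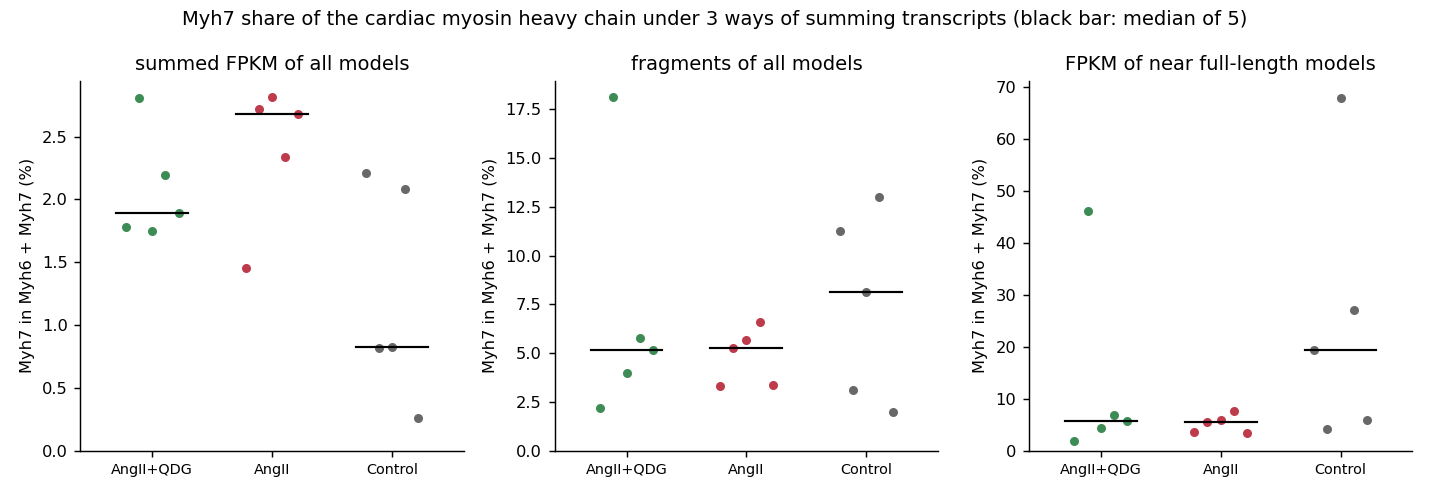
Myh7 as a percentage of Myh6 plus Myh7 in 5 AngII+QDG, 5 AngII and 5 Control libraries, computed from summed FPKM, from fragments and from near full-length models, with the median of 5 as a black bar and separate vertical scales. The Control median is the lowest of the 3 groups on summed FPKM (0.824%) and the highest on near full-length models (19.4%).

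The libraries also differed in their balance of short against long transcripts. The mean log2 level of 2123 short transcripts (under 1000 bases) over that of 5877 long ones (at least 3000 bases) was 0.88 ± 0.10 in AngII+QDG, 0.91 ± 0.07 in AngII and 1.29 ± 0.20 in Control (SD, n = 5 each), with the highest values in Control 3 (1.51) and Control 5 (1.47). Transcripts listed at 0 made up 5.53% ± 0.769 in AngII+QDG, 5.94% ± 0.955 in AngII and 12.1% ± 5.19 in Control. The balance did not overlap between Control (at least 1.061) and AngII (at most 1.035) or AngII+QDG (at most 0.963). A fit with it as a covariate therefore cannot tell the balance from the groups, and their part in the Myh6, Myh7 and Acta1 differences was not tested. The covariate fit called 0 of 7 members, beside 0 of 12267 genes in AngII against Control and 0 in AngII+QDG against Control. In that fit Myh7 was 0.0035 for AngII against Control (limma adjusted p = 1) and −0.18 for AngII+QDG against Control (adjusted p = 0.942), and Acta2 was 0.10 for AngII against Control (adjusted p = 0.974). Depth was similar, between 5.16e+07 and 7.83e+07 fragments a library, if the step found in the values is 1 fragment.

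The atrial light chains were close to the bottom of the measured range. Myl4 held 0.531, 0.334, 1.96, 0.560 and 10.45 FPKM in AngII+QDG, between 0.410 and 1.65 FPKM in AngII and 3.89, 1.26, 0.986, 1.39 and 0.0610 FPKM in Control. Myl7 held 0.777, 2.02, 1.87, 1.45 and 6.50 FPKM in AngII+QDG, between 0.0866 and 1.82 FPKM in AngII and 5.60, 0.460, 1.78, 1.46 and 0.0931 FPKM in Control. The same 2 libraries, AngII+QDG 5 and Control 1, were the highest of all 15 for both genes, and Control 5 was the lowest for Myl4. These values rest on few fragments, a median of 75 for Myl4 and 54 for Myl7, and as few as 4 in a library for either gene.

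No comparison called either light chain. Myl4 differed by −0.14 ± 0.52 (SE) for AngII against Control (limma adjusted p = 0.878), 0.33 ± 0.52 for AngII+QDG against AngII (adjusted p = 0.998; −0.21 without AngII+QDG 5) and 0.19 ± 0.52 for AngII+QDG against Control (adjusted p = 0.823). Myl7 differed by −0.36 ± 0.46 (adjusted p = 0.614), 0.76 ± 0.46 (adjusted p = 0.998, interval −0.22 to 1.73) and 0.39 ± 0.46 (adjusted p = 0.579) in the same comparisons. The intervals reach changes of more than 1 log2 unit, so differences of that size are not excluded.

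Set against their ventricular partners, the light chains were traces. The median ratio was 1 Myl4 to 8193 Myl3 in AngII+QDG, 1 to 5556 in AngII and 1 to 4756 in Control, and 1 Myl7 to 4148, 7128 and 5203 Myl2 in the same order. The log2 Myl7/Myl2 ratio was 1.59 higher in AngII+QDG than in AngII (exact permutation p = 0.0952, adjusted p = 0.333) and 1.37 higher than in Control (p = 0.254 by the same exact test, adjusted p = 0.508), and the AngII to Control difference was −0.22 (exact permutation test, p = 0.897; adjusted p = 0.976). The log2 Myl4/Myl3 ratio differed by −0.02 between AngII and Control (p = 0.976 in the exact permutation test, also after adjustment), by 0.60 for AngII+QDG against AngII (exact permutation p = 0.698, adjusted p = 0.838) and by 0.58 for AngII+QDG against Control (exact permutation p = 0.690, adjusted p = 0.838). Of 9 other genes taken as atrial markers 6 were listed (Nppa, Nr2f2, Kcnj3, Kcna5, Gja5 and Dkk3), none of these 6 at 0. Sln, Bmp10 and Mybphl were not, so the list rests on the remaining 6. In AngII against Control 1 of 6 (the potassium channel Kcna5) was called higher and 0 lower, beside 11.9% and 1.48% of all genes. At an unadjusted p under 0.05 in limma 4 of 6 were higher and 0 lower, beside 31.5% of all genes in either direction. The median log2 fold change of the 6 was 0.58 beside 0.20 for all genes. Their summed level, most of it from Nppa, ran between 229 and 451 FPKM in AngII+QDG, 280 and 802 FPKM in AngII and 182 and 477 FPKM in Control, with AngII+QDG 5 at 280 FPKM. The part of atrial tissue in the Myl4 and Myl7 levels, or in those of these 6 genes, was not tested.

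Between AngII+QDG and AngII hearts limma called 0 of the 7 members and 0 of all 12267 genes (0%), with 0 members and 578 genes (4.71%) at an unadjusted p under 0.05. With a pseudocount of 0.1 or voom on recovered fragments 1 gene was called and still 0 members. Between AngII+QDG and Control 0 of 7 members were called, against 19.4% of all genes, 1 member had an unadjusted p under 0.05, against 33.9%, and 0 members had every AngII+QDG library above every Control library, against 12.8%. The members' median log2 fold change was 0.32 beside 0.176 for all genes. In AngII against Control the members' median was 0.36 beside 0.20. AngII+QDG against AngII had a median of −0.08 beside −0.02. The comparisons with Control share the Control libraries, so they are not independent.

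Among the partners of these proteins in the filaments, the leiomodins Lmod2 and Lmod3, Cfl2 and Tpm4 were higher in AngII than in Control. Of 24 thick and thin filament partners 21 were tested. Of these 5 were higher, 0 lower and 16 did not pass, beside 11.9% of all genes higher and 1.48% lower. The median log2 fold change was 0.36 beside 0.20 for all genes. Lmod2, leiomodin 2, which lengthens thin filaments at their pointed ends, averaged 242 ± 36.9 FPKM in AngII and 134 ± 27.1 FPKM in Control (SD, n = 5 each; log2 fold change 0.86 ± 0.18 SE, limma adjusted p = 0.0166). Its relative Lmod3 rose by 0.50 ± 0.14 (adjusted p = 0.0332). Cfl2, the muscle cofilin that severs actin filaments, rose by 0.51 ± 0.12 (adjusted p = 0.0202), and Tpm4, a tropomyosin of low abundance in the adult heart, by 0.66 ± 0.19 (adjusted p = 0.0386). The fifth was Mybpc2, a myosin binding protein (0.68 ± 0.21, adjusted p = 0.0484), chosen after its value was seen. Without Control 3 and Control 5 the log2 fold change was 0.71 for Lmod2 (adjusted p = 0.0795), 0.33 for Lmod3 (adjusted p = 0.0824) and 0.50 for Tpm4 (adjusted p = 0.19). The Cfl2 call ended after quantile normalization (0.45, adjusted p = 0.0791), in a fit of the 2 groups (0.51, adjusted p = 0.0575) and without AngII 2 (0.45, adjusted p = 0.056). The ventricular light chains Myl2 (−0.31 ± 0.11, adjusted p = 0.0727) and Myl3 (0.24 ± 0.19, adjusted p = 0.419) did not pass. After scaling to the median gene Myl2 was −0.65 and passed (adjusted p = 0.0472), and Myl3 was −0.10. In AngII+QDG against Control 5 partners were higher and 0 lower, beside 16% of all genes higher and 3.31% lower, and against AngII 0 were called. The 5 were Lmod2 (1.26, limma adjusted p = 0.00168), Lmod3, Cfl2, Tpm4 and Unc45b, a myosin chaperone (0.80, adjusted p = 0.0428), the last of them chosen after its value was seen.

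Of 25 transcription and signalling regulators of these isoforms 22 were tested in AngII against Control, and 4 were higher, 0 lower and 18 did not pass (median 0.47), beside 11.9% of all genes higher, 1.48% lower and a median of 0.20. Purb, a repressor that binds single strands of myosin and actin gene control elements, rose by 0.57 ± 0.12 (SE; limma adjusted p = 0.0159). Tbx20, a T-box factor of the heart, rose by 0.92 ± 0.20 (adjusted p = 0.0168), Rcan1, a target and inhibitor of calcineurin, by 0.99 ± 0.27 (adjusted p = 0.0323) and Med13, a Mediator subunit, by 0.51 ± 0.15 (adjusted p = 0.0371). Without Control 3 and Control 5 none of these 4 passed, at 0.55 for Purb (adjusted p = 0.0538), 0.86 for Tbx20 (adjusted p = 0.0753), 0.46 for Med13 (adjusted p = 0.133) and 0.63 for Rcan1 (adjusted p = 0.163). Against Control, 5 regulators in AngII+QDG were higher (Purb, Tbx20, Med13, Mrtfb and Ppp3ca) and 1 lower, beside 16% and 3.31% of all genes, and against AngII 0 were called. The 1 lower was Nkx2-5, a cardiac homeodomain factor (−0.40, adjusted p = 0.0225), and it, Mrtfb and Ppp3ca were chosen after their values were seen.

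Of 11 other actins and non-muscle myosins 2 were higher and 0 lower in AngII against Control, with a median of 0.525. Over all genes 11.9% were higher and 1.48% lower, with a median of 0.20. Actr2, a subunit of the Arp2/3 complex that branches actin filaments, rose by 0.57 ± 0.12 (SE; limma adjusted p = 0.0166) and Myl12a, a non-muscle regulatory light chain, by 0.51 ± 0.15 (adjusted p = 0.0416). The cytoplasmic actin Actg1 (0.66 ± 0.23, adjusted p = 0.0629) and the non-muscle heavy chain Myh9 (0.77 ± 0.27, adjusted p = 0.0719) did not pass. Actg1 passed with mitochondrial genes left out (0.70, adjusted p = 0.0394) and without Control 4 (0.76, adjusted p = 0.0381), and Myh9 without Control 1 (0.92, adjusted p = 0.0463) or Control 4 (0.88, adjusted p = 0.0422). Over all 15 fits with 1 library left out, the limma adjusted p ran up to 0.147 for Actg1 and 0.163 for Myh9. Against Control, AngII+QDG had 2 of 11 (Actr2 and Myh9) higher and 0 lower, beside 16% and 3.31% of all genes, and against AngII it had 0 called. After scaling each library to its median gene, only Rcan1 of the 10 genes named here as the leading calls of the 3 lists still passed in AngII against Control. The Rcan1 call ended in a fit of the 2 groups (limma adjusted p = 0.0828) and with a replicate block (0.0662). With 1 library left out, it ended in 7 of 15 fits. In those fits the call ended in 9 for Myl12a, 8 for Med13, 6 for Tpm4, 5 for Lmod3 and 1 for Cfl2. It ended in 0 for Lmod2, Purb, Tbx20 and Actr2. Without Control 3 and Control 5, Myl12a was 0.63 with an adjusted p of 0.0526.

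Antisense genes overlap both heavy chains, and the library kit named in the labels gives no strand in the sources used here. Mhrt, the long noncoding RNA antisense to Myh7, held medians of 21.6, 17.9 and 16.8 FPKM in AngII+QDG, AngII and Control, with a log2 fold change of 0.27 for AngII against Control (limma adjusted p = 0.47). Gm49130, antisense to Myh6, held medians of 4.38, 2.64 and 4.36 FPKM in the same order. Fragments of Myh7 and Mhrt that come from overlapping exons cannot be told apart without strand.

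Across the 15 libraries each member had its own nearest genes by the Pearson correlation of log2(FPKM + 1), taken as a description over libraries that share their groups and their short-against-long balance. Acta1 was nearest to the matrix metalloproteinase gene Mmp2 (r = 0.904), Fam122a (0.897) and Ctps (0.873). Myh7 was nearest to P4hb (r = 0.940), Ehd4 (0.936) and Gpat4 (0.928), Actc1 to Gramd1a (0.954), Ppp2r1a (0.953) and Mvb12b (0.952), and Acta2 to Mad2l1bp (0.926), Tubb2a (0.920) and Ckap4 (0.920). Myh6 had weaker neighbours, H2-T22 (r = 0.822), Man2b1 (0.799) and Naa20 (0.746). Myl4 and Myl7 both had Snrpn first (r = 0.768 and 0.850) and each other second (0.765), followed by Rpp14 (0.691) and Rps13-ps1 (0.662).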

How the data were processed

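RNA from 15 hearts, 5 per group, was sequenced after removal of ribosomal RNA, per the labels' protocols. The authors deposited 1 table a library with a value per transcript, of which 31685 were listed for Control and AngII and 31734 for AngII+QDG. The headers do not name the unit. The deposited values were read as FPKM because 96.2 to 97.2% of them are whole multiples (within 0.1) of 1 fragment per kilobase. Per the submitters' processing notes the build was GRCm38 and limma was used, and no source used here names the aligner, the quantifier or the strand setting.

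Ensembl transcripts were named from GENCODE M21 and summed per gene, and 8634 assembled transcripts without a gene name were left out. The 12267 of 12391 genes that reached 0.5 FPKM in 5 or more libraries entered 1 limma fit (version 3.58.1, R 4.3.3; variance trend, robust) of log2(FPKM + 1) over all 15 libraries, and Benjamini-Hochberg adjustment at 0.05. Ratios were tested by exact two-sided permutation over 252 arrangements, adjusted over 12 tests. On simulated data over 12267 genes, 74% of genes changed by 1 log2 unit were recovered for AngII against Control, 66% for AngII+QDG against AngII and 67% for AngII+QDG against Control. In the same order 11, 5 and 9 unchanged genes were called. The simulation drew independent noise for each gene, without the libraries' shared balance of short against long transcripts, and changed no genes of low level. The study's design gives 5 mice a group. Intervals are at 95%.

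The members, lists and markers were chosen with earlier results of these data known. Named genes are the 7 members, up to 4 of each list with the smallest p in AngII against Control, the ratio partners Myl2 and Myl3, and for likeness the 3 genes with the highest Pearson correlation among tested genes of at least 5 FPKM on average, members included. Alternatives were another pseudocount, no filter, quantile or median scaling, fits of 2 groups, a replicate block, left-out libraries, other transcript sets, a balance covariate and voom on recovered fragments. Weighting by length and near full-length transcripts were chosen after seeing the data. Figures used matplotlib 3.10.9, and coding sequences were aligned with Biopython 1.88.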

Additional observations from a re-analysis of the deposited data

Results flagged for a closer look

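In 33 sets of 5 libraries, 4 had a highest or lowest library far from the other 4 (Dixon's test), where chance gives about 1 in 20. In AngII+QDG, replicate 5 stood high for Myl4 at 10.45 FPKM and for Myl7 at 6.502 FPKM. In AngII, replicate 1 had the lowest log2 Myh7/Myh6 ratio, −6.085. In Control, replicate 5 had the highest log2 Acta1/Actc1 ratio, −4.322.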

How the results depend on the processing

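The direction of Myh6 and the single member call depended on the processing, and the cause was not tested. Genes called in AngII against Control were 819 after quantile normalization, 317 in a fit of the 2 groups, 516 with a replicate block, 97 without Control 3 and Control 5 and 0 with a covariate for short against long transcripts, which differs between the groups. In AngII+QDG against AngII 1 gene was called with a pseudocount of 0.1, with that covariate or with voom, 5 with length weighting and 2 on near full-length models. In AngII+QDG against Control 1438 were called in a fit of the 2 groups, 1199 without Control 3 and Control 5 and 0 with the covariate. Leaving out 1 library gave 316 to 2484, 0 to 1 and 1452 to 3022 genes in these comparisons. The AngII count was 878, 316, 474 and 504 without AngII replicates 1, 2, 4 and 5, and 982, 702, 2484 and 793 without Control replicates 2, 3, 4 and 5, and the AngII+QDG count against Control was 1452 without AngII+QDG replicate 1.

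Of the 7 members, 0 were called in AngII against Control after quantile normalization, median scaling, a fit of the 2 groups, the replicate block, without Control 3 and Control 5, with the covariate or with voom, and 2 (Acta1 and Acta2) with mitochondrial genes left out, which also called 1 (Myh7) in AngII+QDG against Control. Leaving out 1 library gave 0 to 3 members in AngII against Control, 0 in AngII+QDG against AngII and 0 to 1 in AngII+QDG against Control. Same-numbered libraries did not deviate together (correlations −0.096 to 0.087), so the replicate block, with 516 genes, is a setting and not a pairing. For the ratios the block allows no p below 0.0625, so it could give no call.

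Directions turned as follows in AngII against Control: Myl4 to 0.015 (pseudocount 0.1) and 0.19 (voom), Myl3 to −0.10 (median scaling), Actc1 to −0.038 (without Control 3 and Control 5) and −0.23 (covariate), Myl2 to 0.061 and Myh9 to −0.22 (covariate), and Myh6 to 1.28 (voom), 1.30 (length weighting) and 2.91 (near full-length). In AngII+QDG against AngII Myh6 turned to −0.33, −0.32 and −0.71 under those 3. In AngII+QDG against Control Myh6 turned to 0.94, 0.98 and 2.21 under them, Myl4 to −0.054 (quantile) and −0.22 (without Control 3 and Control 5), Actc1 to −0.13 (median scaling) and −0.19 (without Control 3 and Control 5), and Acta2 to −0.018 (median scaling). With the covariate the same comparison gave 0.11 for Myh6, −0.18 for Myh7, −0.28 for Acta1, −0.44 for Actc1, −0.23 for Acta2, −0.69 for Myl4 and −0.19 for Myl7. The log2 Myh7/Myh6 ratio turned to −0.39 and −2.06 (length weighting, near full-length) in AngII against Control, 0.25 and 0.62 in AngII+QDG against AngII and −0.14 and −1.44 in AngII+QDG against Control, where the covariate gave −0.30. In that comparison Myl4/Myl3 turned to −0.60 (quantile), −0.66 (without Control 3 and Control 5) and −1.97 (covariate), and Myl7/Myl2 to −0.52 (covariate).

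With 1 library left out, signs changed within −0.41 to 0.14 for Myl4 and −0.64 to 0.0075 for Myl7 (AngII against Control), −0.038 to 0.28 for Myh6, −0.25 to 0.084 for Myh7 and −0.21 to 0.56 for Myl4 (AngII+QDG against AngII), and −0.29 to 0.040 for Myh6, −0.067 to 0.34 for Actc1 and −0.35 to 0.47 for Myl4 (AngII+QDG against Control). The Myl4/Myl3 ratio ran within −0.84 to 0.59, −0.25 to 0.99 and −0.28 to 1.19 in these 3 comparisons, and Myl7/Myl2 within −1.07 to 0.49 in AngII against Control.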
